A study of Mus musculus with 8 samples.

Results

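The genes described here maintain, copy and transcribe the mitochondrial genome and process its RNA. They were taken as a fixed list of 38 nuclear genes, of which 37 were matched among the 24860 genes of the deposited files through their Ensembl identifiers. The 38th, Slirp, was not analysed here. RNA was measured in mature eggs, oocytes held at metaphase of meiosis II (MII oocytes), of C57BL/6 female mice at 6 weeks, postnatal day 42. The groups were Esrp1 knockout females (Esrp1_KO) and wild-type females (WT), with 4 libraries each, described by the submitters as biological replicates. Each library came from a tube of 15 oocytes lysed directly, and cDNA was made with Smart-seq2, which primes on poly(A) tails and keeps no record of the RNA strand. The labels do not say whether a tube held eggs of a single female, so each p-value reflects only how tubes vary. They also do not describe the Esrp1 allele. ESRP1 is an RNA-binding protein known for its control of alternative splicing in epithelia.

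Mitochondria carry a small circular genome of their own, which encodes core subunits of the respiratory chain together with the ribosomal and transfer RNAs that translate them. Everything else needed to copy and read that genome is encoded in the nucleus and imported. A dedicated polymerase, helped by the initiation factors TFAM and TFB2M, makes long transcripts of each strand, which are cut at the transfer RNAs, modified, given poly(A) tails and finally degraded. TFAM also coats the DNA, and its amount follows the number of genome copies. The egg is the source of practically all mitochondria of the embryo and holds very many genome copies, which are not replicated again until after implantation in the mouse.

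The deposited values are FPKM, fragments scaled to transcript length and to the library total, so they are relative levels per gene length. Read totals implied by the values were 24910431 to 32337966 in Esrp1_KO and 25018180 to 28932107 in WT. Esrp1 itself averaged 3.30 ± 0.68 FPKM in Esrp1_KO and 17.5 ± 1.42 FPKM in WT (SD, n = 4 each), which is 18.8% of WT. Values per gene do not show which exons the remaining reads lie on. Markers of oocytes summed to 9001 to 10450 FPKM in Esrp1_KO and 7606 to 8399 FPKM in WT. They did not move as one, since Zp1, Zp2, Zp3 and Ooep were higher in Esrp1_KO (1.72-fold to 2.23-fold), Mos was lower (52.9% of WT), and Gdf9, Bmp15 and Oosp1, which make up most of the sum, did not pass. Of 8 granulosa and cumulus markers in the files, 1 (Cyp19a1) averaged 1 FPKM or more, with 1.87 ± 0.39 FPKM in Esrp1_KO and 6.10 ± 0.71 FPKM in WT, and the list summed to 2.06 to 2.89 FPKM in Esrp1_KO and 6.27 to 8.21 FPKM in WT. Hsd3b1, below the filter, also had Esrp1_KO below WT with no overlap (0.286 to 0.498 FPKM in Esrp1_KO and 0.572 to 0.913 FPKM in WT), while the other 6, Foxl2 and Fshr among them, stayed at or below 0.235 FPKM. The 7 leukocyte markers summed to 0.643 to 9.12 FPKM in Esrp1_KO, with the highest sum in replicate 3, and to 0.367 to 1.59 FPKM in WT. The part of these markers in the results below was not tested.

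Of the 37 genes in the files, 26 averaged 1 FPKM or more across the 8 libraries and were tested. At an adjusted p below 0.05 (limma on log2(FPKM + 1), Benjamini-Hochberg over all 8021 genes tested), 1 of the 26 was higher in Esrp1_KO, 11 were lower and 14 did not pass. Over all genes tested, 13.9% were higher and 23.1% were lower. The lower members are thus 42.3% of those tested and the higher one 3.85%. The values of the groups did not overlap in 10 members with Esrp1_KO below WT and in 2 with Esrp1_KO above, where the shares over all genes tested were 23.3% and 13.5%. The median log2 fold change of the 26 members was −0.25, with 16 negative and 10 positive, against −0.06 over all genes tested. The filter admitted a pair of genes whose Esrp1_KO mean was below 1 FPKM, Mterf1a and Twnk. Esrp1_KO replicate 1 was the highest or the lowest of the Esrp1_KO libraries in 22 of the 26 members. Without that library 8 members were lower and 1 was higher. Fewer of all genes tested were lower in that fit as well, and the share stayed larger among the members. The balance of directions over all genes depended on scaling: 62.5% of all called genes were lower with FPKM as deposited, 52.1% with median-ratio scaling and 51.1% with quantile normalization. With median-ratio scaling and quantile normalization 9 and 8 of the 26 members were lower. Fewer of the 8021 genes tested were lower as well, and in both fits the share that was lower stayed larger among the members. With no filter on low values 7 of 37 members were lower. This share was still above that of the 24860 genes then tested, which was itself below 23.1%. Of those 24860 genes 8021 averaged 1 FPKM or more, against 26 of the 37 members. Of all genes called in that fit, 66.2% were lower. The calls of Twnk (adjusted p = 0.0836), Rnaseh1 (0.116), Fastkd1 (0.053) and Tfb1m (0.0507) were lost in that fit.

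**Figure D1:**
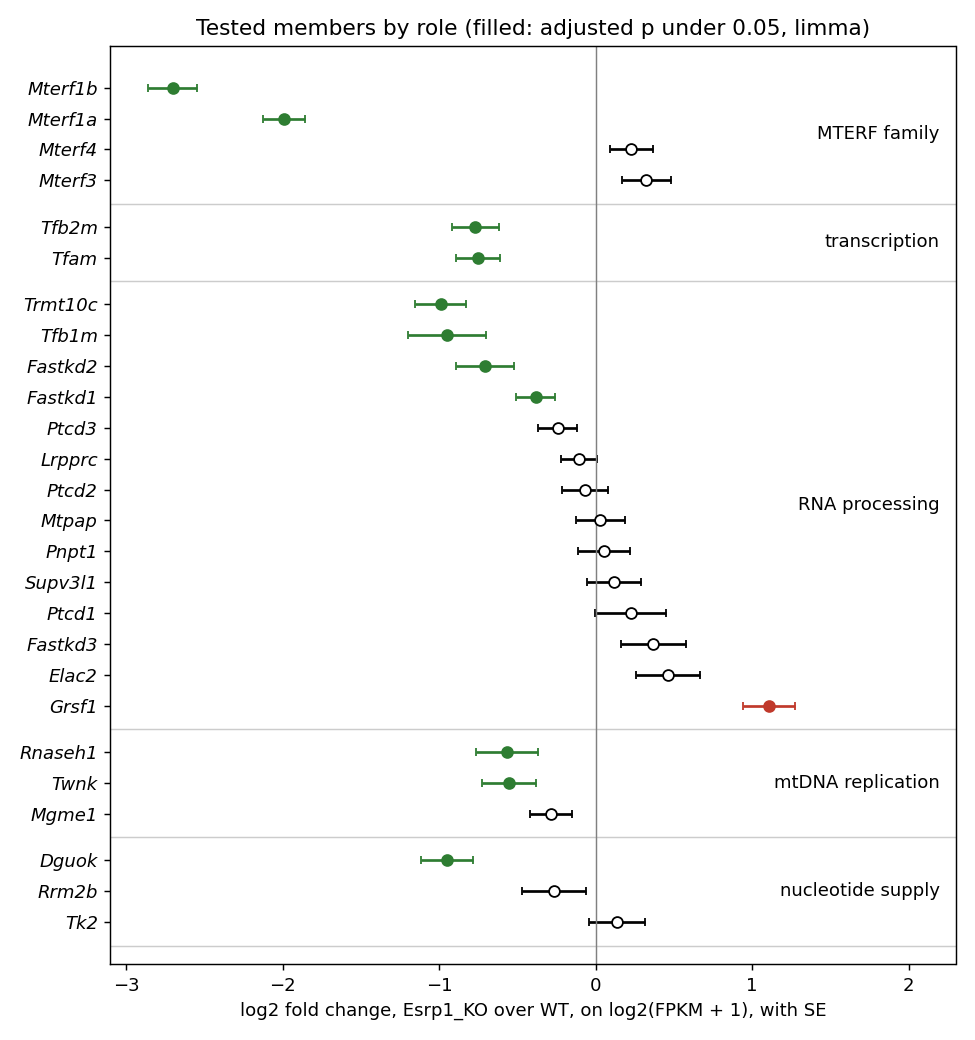
Log2 fold change of Esrp1_KO over WT on the log2(FPKM + 1) scale (x axis) with its standard error for the 26 tested members, grouped by role (y axis); filled points passed an adjusted p of 0.05. Mterf1b at −2.70 and Mterf1a at −1.99 lie farthest to the left and Grsf1 at 1.11 farthest to the right.

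The strongest differences were in the MTERF family, proteins of repeated helical hairpins that bind mitochondrial DNA or ribosomal RNA. MTERF1 binds a site in a leucine transfer RNA gene just downstream of the ribosomal RNA genes and stops transcription there. The mouse carries a pair of copies, Mterf1a and Mterf1b, on chromosome 5 and 298434 bases apart in GRCm38. Mterf1a (ENSMUSG00000040429) spans chr5:3890581-3893933 on the minus strand and Mterf1b (ENSMUSG00000053178) spans chr5:4192367-4197651 on the plus strand. Their longest annotated coding sequences, of 1137 and 1143 bases, were 98.5% identical over the alignment. Their promoters are printed because the copies fell together and differ at only 2 of 293 aligned bases. The windows are those of RefSeq on GRCm38.p6 and run from 250 bases before to 50 bases after the annotated start, 5′ to 3′ along the gene, at chr5:3893884-3894183 on the minus strand for Mterf1a and at chr5:4192117-4192416 on the plus strand for Mterf1b. Capitals mark the letters CCGGAAG, the core recognised by many ETS transcription factors.
Mterf1a: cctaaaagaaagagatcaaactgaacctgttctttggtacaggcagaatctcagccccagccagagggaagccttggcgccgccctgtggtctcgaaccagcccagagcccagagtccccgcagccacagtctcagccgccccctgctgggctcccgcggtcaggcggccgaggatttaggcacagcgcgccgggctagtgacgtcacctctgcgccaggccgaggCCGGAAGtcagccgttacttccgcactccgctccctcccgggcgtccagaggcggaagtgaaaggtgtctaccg
Mterf1b: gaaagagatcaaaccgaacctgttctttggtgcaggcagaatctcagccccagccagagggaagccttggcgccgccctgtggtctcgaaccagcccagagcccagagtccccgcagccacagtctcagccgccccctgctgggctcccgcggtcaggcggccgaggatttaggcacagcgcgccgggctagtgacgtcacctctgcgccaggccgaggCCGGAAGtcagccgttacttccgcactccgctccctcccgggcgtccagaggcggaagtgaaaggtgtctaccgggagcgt

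Mterf1b had 0.836, 1.58, 1.91 and 1.68 FPKM in the 4 Esrp1_KO libraries, against 13.9, 16.2, 15.2 and 15.1 FPKM in the WT libraries. The groups lie far apart, and the highest Esrp1_KO library is well below the lowest WT library. The means of 1.504 ± 0.47 FPKM in Esrp1_KO and 15.1 ± 0.98 FPKM in WT (SD, n = 4 each) give a level of 9.97% of WT and a log2 fold change of −2.70 ± 0.16 (SE, adjusted p = 7.39e-06). Mterf1a had 0.147, 0.294, 0.344 and 0.382 FPKM in Esrp1_KO, against 3.61, 3.85, 5.05 and 4.08 FPKM in WT. It was less abundant than its copy in every library and separated the groups as widely. The Esrp1_KO mean of 0.292 ± 0.10 FPKM was 7.04% of the WT mean of 4.15 ± 0.63 FPKM, and it fell by 1.99 ± 0.13 on the log2 scale (SE, adjusted p = 1.10e-05). Mterf1a entered the test through its WT level alone, and it also passed in the limma fit without that filter (adjusted p = 0.000124). The added 1 FPKM compresses the change of genes this low, and on reads recovered from the FPKM the log2 fold changes were −3.90 for Mterf1a and −3.40 for Mterf1b. Each library pooled 15 oocytes, so a change in some eggs and a smaller change in all of them cannot be told apart.

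Reads can be divided wrongly between near-identical copies. Of the 50-base stretches in Mterf1b transcripts, 61.3% also occur in Mterf1a, and 25.9% of those of Mterf1a occur in Mterf1b. The summed reads of both copies do not depend on that division. They were 52, 77, 106 and 99 in Esrp1_KO and 799, 859, 1031 and 967 in WT, and all Esrp1_KO sums lie far below all WT sums. The summed FPKM still depend on it in part, since the exons of Mterf1a cover 3144 bases and those of Mterf1b 1368. This sum was 0.984, 1.88, 2.26 and 2.06 FPKM in Esrp1_KO, against 17.5, 20.1, 20.2 and 19.1 FPKM in WT. Esrp1_KO eggs thus held 9.34% of the summed WT level, 1.80 ± 0.56 against 19.2 ± 1.27 FPKM (SD, n = 4 each, exact two-sided permutation p = 0.0286, the smallest that 4 against 4 libraries can give). The ratio of Mterf1b to Mterf1a FPKM was 4.39 to 5.67 in Esrp1_KO and 3.003 to 4.22 in WT.

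The other tested members of the family, Mterf3 and Mterf4, had higher means in Esrp1_KO and did not pass. Mterf3, which in mouse acts in assembly of the mitochondrial ribosome and on transcript levels, had 7.23, 8.87, 8.34 and 8.72 FPKM in Esrp1_KO and 5.81, 5.34, 8.95 and 5.98 FPKM in WT. The groups overlapped only through WT replicate 3, and the log2 fold change of 0.32 ± 0.16 (SE) did not pass (adjusted p = 0.137). Without WT replicate 3 it was 0.47 and passed (adjusted p = 0.0252). Mterf4, which brings the ribosomal RNA methylase NSUN4 to the large subunit, had 4.96 to 6.999 FPKM in Esrp1_KO and 4.48 to 5.83 FPKM in WT (log2 fold change 0.23 ± 0.14, adjusted p = 0.221). Exons of Sned1 on the other strand overlap 35.2% of its exon bases, and strand was not recorded. Mterf2 was below the filter, with 0 to 4 reads per Esrp1_KO library and 1 to 11 reads per WT library. Its mean was 22.3% of WT with overlapping groups, and it did not pass in the fit without a filter (adjusted p = 0.143).

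**Figure D2:**
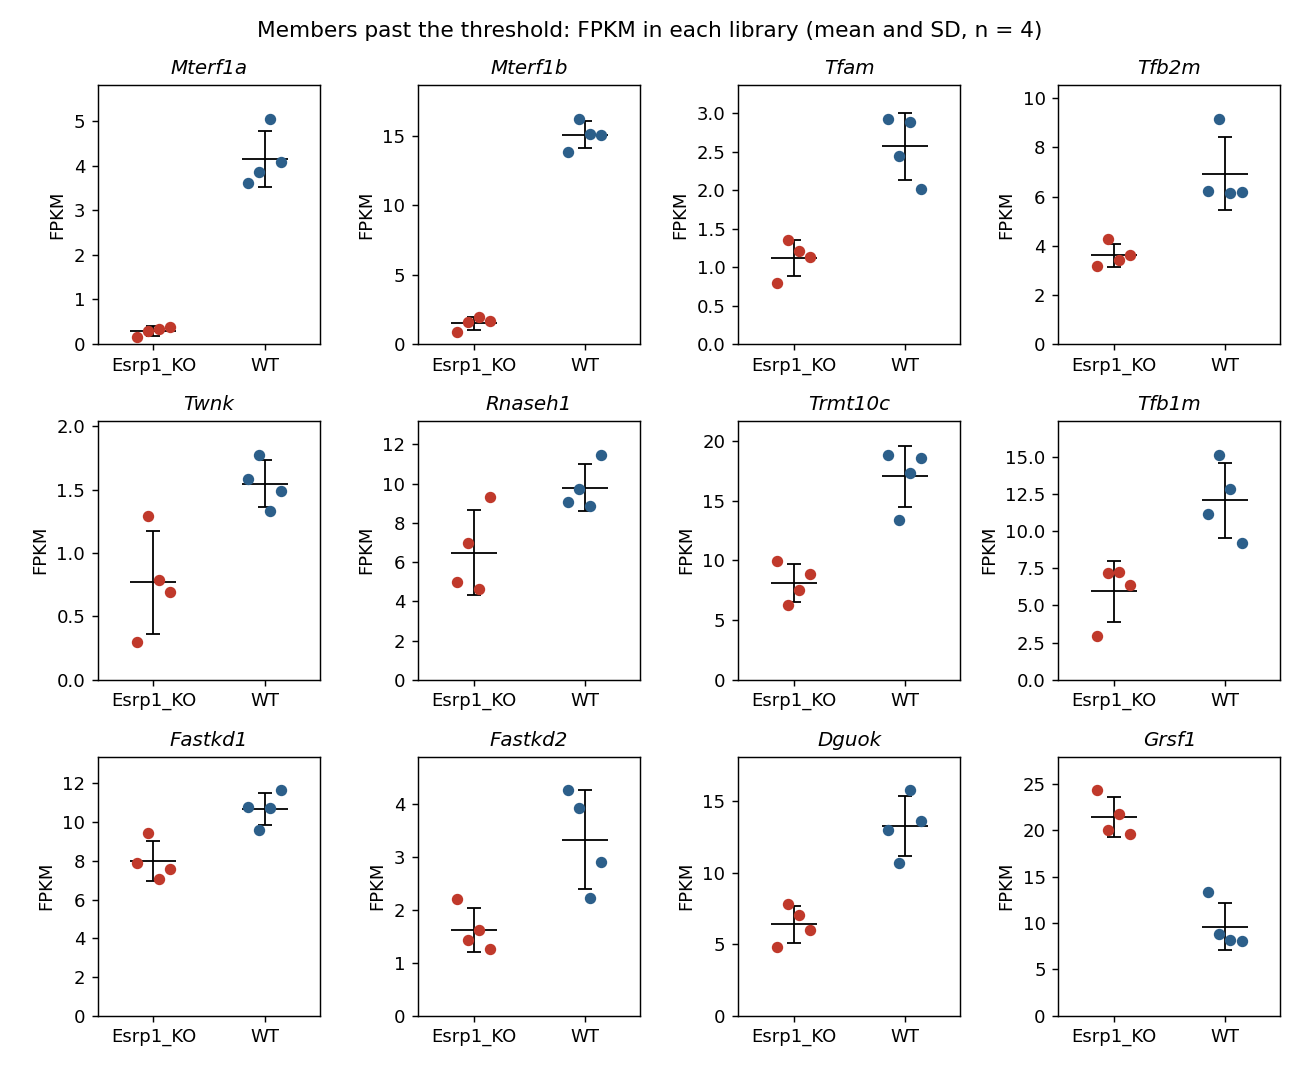
FPKM (y axis, from 0) in each library of Esrp1_KO (left, red) and WT (right, blue) for the 12 members that passed the threshold; horizontal lines with bars are the mean and SD of 4 libraries. Groups overlap in Rnaseh1 alone among these 12, and Grsf1 alone is higher in Esrp1_KO.

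Of the 4 members of the transcription machinery 2 were tested, and both were lower, beside 23.1% of all genes tested. TFAM bends promoter DNA for initiation and packages the genome, and TFB2M opens the promoter for the polymerase. Tfam (ENSMUSG00000003923, chr10:71225464-71238280, minus strand) had 0.787, 1.35, 1.21 and 1.13 FPKM in Esrp1_KO, against 2.93, 2.44, 2.89 and 2.02 FPKM in WT. Every Esrp1_KO library lies below every WT library. Its mean was 1.12 ± 0.24 FPKM in Esrp1_KO and 2.57 ± 0.43 FPKM in WT (SD, n = 4 each), 43.6% of WT, with a log2 fold change of −0.75 ± 0.14 (SE, adjusted p = 0.00278). Tfb2m (ENSMUSG00000026492, chr1:179528055-179546267, minus strand) had 3.18, 4.25, 3.41 and 3.62 FPKM in Esrp1_KO, against 6.22, 9.17, 6.14 and 6.18 FPKM in WT. The groups are again separate, and WT replicate 2 stands above the other WT libraries. The Esrp1_KO mean of 3.61 ± 0.46 FPKM was 52.2% of the WT mean of 6.93 ± 1.49 FPKM (log2 fold change −0.77 ± 0.15, SE, adjusted p = 0.0034). Tfb2m shares 31.9% of its 50-base stretches with the locus Gm1818.

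The polymerase gene Polrmt was below the filter. It had 1.34, 0.523, 0.886 and 0.634 FPKM in Esrp1_KO, against 1.21, 0.41, 0.372 and 0.694 FPKM in WT, and replicate 1 was the highest library in each genotype. It did not pass in the fit without a filter (log2 fold change 0.15, adjusted p = 0.656). Tefm, the elongation factor that keeps the polymerase on its template, had 7, 0, 22 and 14 reads in Esrp1_KO and 41, 4, 16 and 18 reads in WT. Both genes overlap between the groups. The promoter window of Tfam, at chr10:71237995-71238294 on the minus strand of GRCm38.p6, is printed from RefSeq because this gene fell and its window holds the same CCGGAAG letters, in capitals.
Tfam: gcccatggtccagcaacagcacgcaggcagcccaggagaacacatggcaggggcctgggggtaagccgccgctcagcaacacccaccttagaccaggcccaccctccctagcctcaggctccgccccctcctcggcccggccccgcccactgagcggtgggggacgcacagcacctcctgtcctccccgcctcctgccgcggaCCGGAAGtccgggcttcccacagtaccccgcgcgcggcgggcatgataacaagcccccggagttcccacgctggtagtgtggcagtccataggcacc

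RNA processing was the largest group, with 14 of 18 genes tested, of which 1 was higher (7.14%) and 4 were lower (28.6%), near the 23.1% of all genes tested that were lower. The single member that rose was Grsf1 (ENSMUSG00000044221, chr5:88659448-88676171, minus strand), an RNA-binding protein of the granules in which new mitochondrial transcripts are processed. It had 24.3, 20.1, 21.8 and 19.6 FPKM in Esrp1_KO, against 13.3, 8.77, 8.13 and 8.11 FPKM in WT. All Esrp1_KO libraries lie above all WT libraries, with replicate 1 the highest in each genotype. The means were 21.4 ± 2.14 FPKM in Esrp1_KO and 9.59 ± 2.53 FPKM in WT (SD, n = 4 each), a 2.24-fold higher level with a log2 fold change of 1.11 ± 0.17 (SE, adjusted p = 0.000798). Grsf1 passed in the same direction in all 22 alternatives tried.

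The 4 that fell act on ribosomal and transfer RNAs or belong to the FASTK family of RNA-binding proteins. Trmt10c (ENSMUSG00000044763, chr16:56032609-56037819, minus strand) encodes the methyltransferase subunit of mitochondrial RNase P, the enzyme that frees transfer RNAs at their leading end. It had 9.90, 6.26, 7.47 and 8.81 FPKM in Esrp1_KO, against 18.8, 13.3, 17.3 and 18.6 FPKM in WT. The groups are separate, and replicate 2 is the lowest in each. The Esrp1_KO mean of 8.11 ± 1.58 FPKM was 47.6% of the WT mean of 17.0 ± 2.54 FPKM (log2 fold change −0.99 ± 0.16, SE, adjusted p = 0.00135). Its RefSeq promoter window, at chr16:56037737-56038036 on the minus strand of GRCm38.p6, is printed because it holds the ETS core on the opposite strand, so that the capitals read CTTCCGG.
Trmt10c: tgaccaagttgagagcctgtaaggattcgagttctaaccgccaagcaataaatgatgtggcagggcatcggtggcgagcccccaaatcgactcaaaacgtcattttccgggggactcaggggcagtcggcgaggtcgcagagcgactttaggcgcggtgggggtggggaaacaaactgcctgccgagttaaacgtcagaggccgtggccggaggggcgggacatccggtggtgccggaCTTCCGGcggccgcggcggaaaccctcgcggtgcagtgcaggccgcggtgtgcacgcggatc

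Tfb1m, the methyltransferase that dimethylates a conserved hairpin of the small ribosomal RNA, had 2.96, 7.20, 7.28 and 6.40 FPKM in Esrp1_KO, against 11.1, 15.2, 12.8 and 9.19 FPKM in WT. The groups do not overlap, and Esrp1_KO replicate 1 is much the lowest. Its log2 change came to −0.95 ± 0.25 (SE, adjusted p = 0.0141), and it was −0.70 without that library (adjusted p = 0.0115). Fastkd2, which binds the large ribosomal RNA and is needed for assembly of its subunit, had 2.21, 1.42, 1.61 and 1.25 FPKM in Esrp1_KO, against 4.25, 3.93, 2.23 and 2.90 FPKM in WT. WT replicate 3 lies just above the highest Esrp1_KO library. Its log2 change came to −0.71 ± 0.18 (SE, adjusted p = 0.0139), and the Esrp1_KO mean was 48.8% of WT. Fastkd1, a relative of Fastkd2, had 7.89, 9.42, 7.05 and 7.58 FPKM in Esrp1_KO, against 10.8, 9.59, 10.7 and 11.6 FPKM in WT. The groups nearly touch at replicate 2 of each genotype. Its log2 fold change of −0.38 ± 0.12 (SE) passed narrowly (adjusted p = 0.0356). That call was lost when any 1 of 6 libraries was left out, with adjusted p of 0.0535 without Esrp1_KO replicate 1, 0.0928 without Esrp1_KO replicate 3, 0.0859 without Esrp1_KO replicate 4, 0.0839 without WT replicate 1, 0.0748 without WT replicate 3 and 0.101 without WT replicate 4. With the replicate block it was 0.051.

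Elac2, Pnpt1, Supv3l1 and Mtpap, the members whose enzymes finish or degrade mitochondrial transcripts, did not pass. Elac2, which cuts transfer RNAs at their trailing end, had 9.68, 5.32, 5.11 and 5.09 FPKM in Esrp1_KO, against 4.99, 3.21, 4.01 and 4.54 FPKM in WT. The groups are separate with Esrp1_KO above, but replicate 1 is far above the other Esrp1_KO libraries. The log2 fold change of 0.46 ± 0.20 (SE) did not pass (adjusted p = 0.104), and it passed with the replicate block (adjusted p = 0.0398). Pnpt1 and Supv3l1, the nuclease and the helicase of the mitochondrial RNA degradosome, had log2 fold changes of 0.05 and 0.12 (adjusted p = 0.826 and 0.635). Mtpap, the polymerase that adds poly(A) tails to mitochondrial mRNAs, was the most abundant member, with 67.6 to 103 FPKM in Esrp1_KO and 70.4 to 89.9 FPKM in WT. Its means were 86.2 ± 15.9 FPKM in Esrp1_KO and 83.7 ± 9.07 FPKM in WT (SD, n = 4 each; log2 fold change 0.03, adjusted p = 0.902), and 20.3% of its 50-base stretches also occur in other genes. Lrpprc, which holds mitochondrial mRNAs in a stable, translatable form, had 4.38 ± 0.42 FPKM in Esrp1_KO and 4.79 ± 0.38 FPKM in WT (log2 fold change −0.11, adjusted p = 0.505). Fastkd3 had 5.83 to 11.4 FPKM in Esrp1_KO and 4.64 to 7.36 FPKM in WT (log2 fold change 0.37, adjusted p = 0.188). The pentatricopeptide repeat genes Ptcd1, Ptcd2 and Ptcd3 had log2 fold changes of 0.23, −0.07 and −0.24 (adjusted p = 0.468, 0.745 and 0.158).

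The signs of the small changes were not stable. Those of Pnpt1, Supv3l1, Ptcd1, Ptcd2 and Mtpap each turned in at least 1 alternative, Ptcd2 with median-ratio scaling and quantile normalization, Mtpap with quantile normalization and a common total of nuclear genes, and Pnpt1, Supv3l1, Ptcd1 and Mtpap when Esrp1_KO replicate 1 was left out. Below the filter were Fastk, with 0.168 to 0.318 FPKM in Esrp1_KO and 0.173 to 0.238 FPKM in WT, and Fastkd5, with 0.0704 to 0.373 FPKM in Esrp1_KO and 0.0663 to 0.259 FPKM in WT. So were Tbrg4, another member of the FASTK family, with 0.201 to 0.312 FPKM in Esrp1_KO and 0.183 to 0.646 FPKM in WT, and the RNase P subunit Hsd17b10, with 0.0238 to 0.699 FPKM in Esrp1_KO and 0.0308 to 0.438 FPKM in WT. The groups overlap in all 4 genes, and 65.2% of the exon bases of Fastkd5 also belong to Ubox5.

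**Figure D3:**
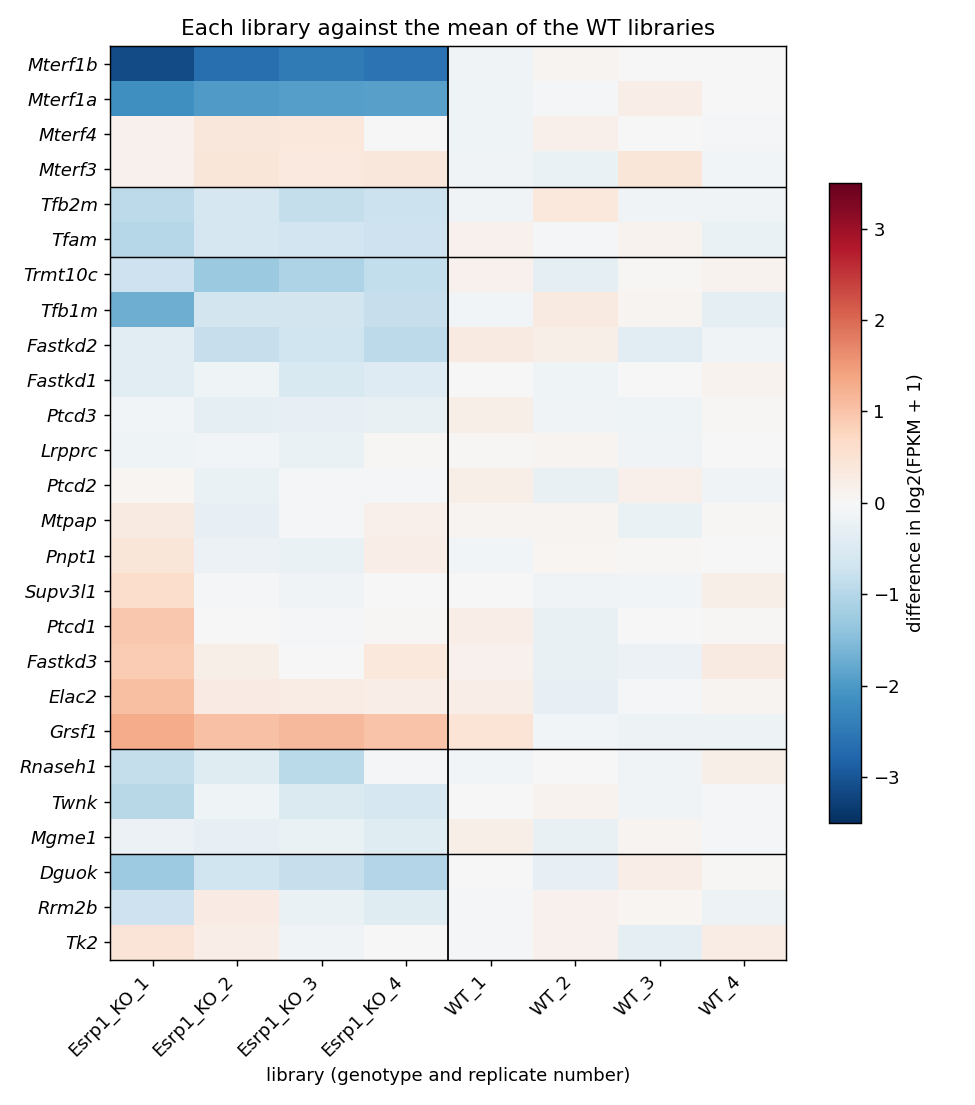
Difference of each library (x axis, Esrp1_KO left, WT right) from the mean of the WT libraries in log2(FPKM + 1), shown as colour, for the 26 tested members (y axis) in blocks by role from the MTERF family at the top through transcription, RNA processing and replication to nucleotide supply. The Esrp1_KO columns are blue throughout for Mterf1b, Mterf1a, Tfam, Tfb2m, Trmt10c and Dguok, among others. Esrp1_KO replicate 1 holds the deepest colour of several other members.

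Most of the replication genes averaged below 1 FPKM in these libraries, which were primed on poly(A) tails, and protein was not measured. Of 7 genes, 3 were tested and 2 of these were lower, both close to the threshold, beside 23.1% of all genes tested. Twnk, the replicative helicase, had 0.301, 1.29, 0.79 and 0.689 FPKM in Esrp1_KO, against 1.59, 1.78, 1.33 and 1.49 FPKM in WT. Esrp1_KO replicate 2 lies just under the lowest WT library. Its log2 change came to −0.55 ± 0.17 (SE, adjusted p = 0.0315), and it did not pass without Esrp1_KO replicate 1 (−0.41, adjusted p = 0.0607). It entered the test through its WT level alone, with means of 0.768 FPKM in Esrp1_KO and 1.55 FPKM in WT, and did not pass in the fit without that filter (adjusted p = 0.0836). Leaving out Esrp1_KO replicate 3 or 4 or WT replicate 1, 2 or 4 also ended the call, with adjusted p of 0.0589, 0.0708, 0.0594, 0.0659 and 0.0608 in that order. Rnaseh1, which removes RNA primers from mitochondrial and nuclear DNA, had 4.97, 6.99, 4.61 and 9.31 FPKM in Esrp1_KO, against 9.06, 9.74, 8.85 and 11.5 FPKM in WT. The groups overlap through Esrp1_KO replicate 4. It fell by 0.57 ± 0.20 on the log2 scale (SE, adjusted p = 0.0464). That call held when Esrp1_KO replicate 4 was left out (adjusted p = 0.0111) and was lost without each of the other 7 libraries, with adjusted p of 0.101, 0.0573 and 0.117 without Esrp1_KO replicates 1 to 3 and of 0.0737, 0.0838, 0.0691 and 0.119 without WT replicates 1 to 4. Mgme1, an exonuclease that trims DNA ends during replication, had 2.01 to 2.53 FPKM in Esrp1_KO and 2.40 to 3.70 FPKM in WT (log2 fold change −0.29, adjusted p = 0.127).

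The replicative polymerase was below the filter. Polg, its catalytic subunit, had 22, 34, 23 and 25 reads in Esrp1_KO and 21, 19, 25 and 29 reads in WT, with overlapping groups. Polg2, its accessory subunit, had 0.138 to 0.355 FPKM in Esrp1_KO and 0 to 0.114 FPKM in WT. Ssbp1, the single-strand DNA-binding protein of the replication fork, had 0.167, 0.288, 0.163 and 0.203 FPKM in Esrp1_KO, against 0.408, 0.459, 0.314 and 0.347 FPKM in WT. The groups of Polg2 and Ssbp1 do not overlap, Polg2 with Esrp1_KO above WT and Ssbp1 with Esrp1_KO below it. In the fit without a filter on low values neither passed (adjusted p = 0.123 for each). Top1mt, the mitochondrial topoisomerase, was listed at 0 in 7 libraries and at 0.458 FPKM in WT replicate 1. That library had the most genes above 0 of all libraries, 20047, against 15201, 17103 and 18100 in WT replicates 2, 3 and 4.

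Of the enzymes that supply nucleotides for mitochondrial DNA outside S phase, 1 of 3 was lower, beside 23.1% of all genes tested. Dguok (ENSMUSG00000014554, chr6:83480217-83506969, minus strand), the kinase that salvages purine deoxynucleosides inside the mitochondrion, had 4.82, 7.77, 7.05 and 5.97 FPKM in Esrp1_KO, against 13.0, 10.7, 15.8 and 13.6 FPKM in WT. All Esrp1_KO libraries are below all WT libraries. The means were 6.40 ± 1.29 FPKM in Esrp1_KO and 13.3 ± 2.10 FPKM in WT (SD, n = 4 each), 48.3% of WT, with a log2 fold change of −0.95 ± 0.17 (SE, adjusted p = 0.00172). Tk2, the matching kinase for pyrimidines, had 1.34 to 2.48 FPKM in Esrp1_KO and 0.995 to 2.03 FPKM in WT (log2 fold change 0.14, adjusted p = 0.586). Rrm2b, the small ribonucleotide reductase subunit used outside S phase, had 27.1, 55.9, 38.5 and 33.7 FPKM in Esrp1_KO and 43.4, 50.8, 47.7 and 39.9 FPKM in WT. Esrp1_KO replicate 2 is the highest of the 8 libraries. The gene did not pass (log2 fold change −0.27, adjusted p = 0.333), and it passed without that library (−0.45, adjusted p = 0.0455).

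**Figure D4:**
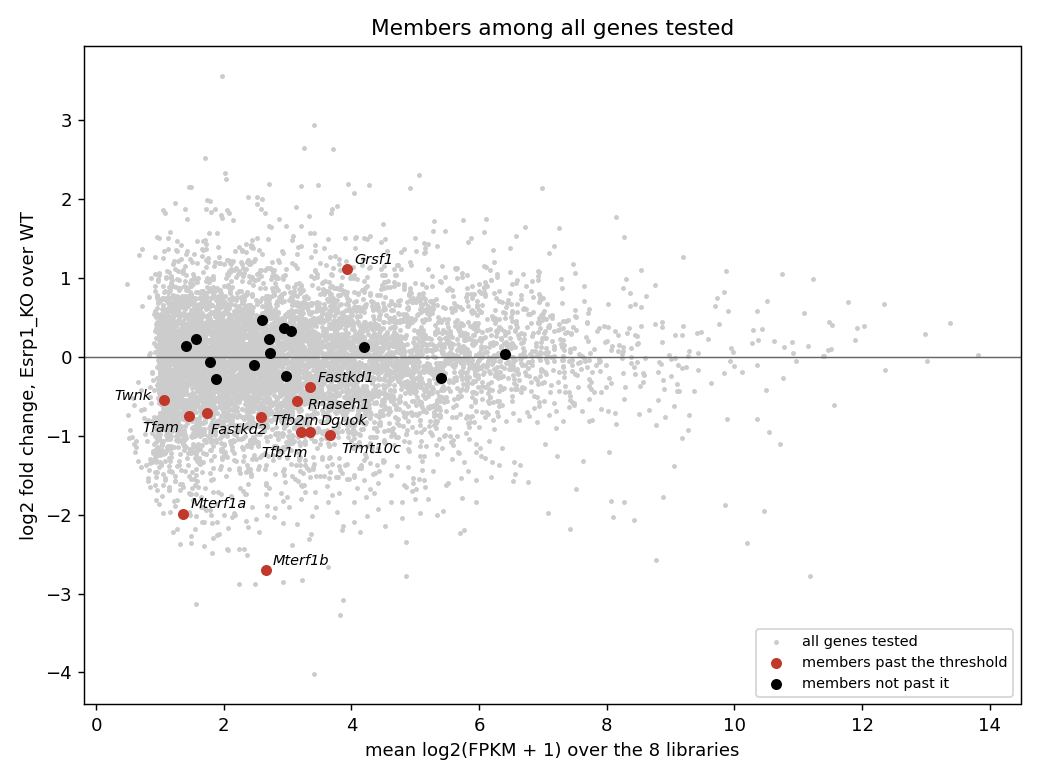
Log2 fold change of Esrp1_KO over WT (y axis) against mean log2(FPKM + 1) over the 8 libraries (x axis) for the 8021 genes tested, with the 26 tested members in red (past an adjusted p of 0.05) and black. Mterf1b lies near the lower edge of the cloud and Mterf1a in its lower part, and the other called members lie within it.

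The letters printed above were then counted over all members with a RefSeq window, 32 of the 37. CCGGAAG, read on both strands, occurs in 17 of these 32 windows (53.1%), in 1240 of the 5799 tested genes with a window (21.4%) and in 2910 of all 32851 windows (8.86%). Among the 10 lower members with a window it occurs in 5, Mterf1a, Mterf1b, Tfam, Trmt10c and Twnk. That share is near the 53.1% of all members with a window, and the windows printed above were picked from these 5. The core of the NRF1 site, read on both strands as GCGCA, any base and then GCGC, occurs in 3 of the 32 member windows (9.38%), in 741 of the 5799 tested genes (12.8%) and in 4.6% of all windows, and in none of the 10. Overlap between matches of these motifs was not counted, and a match in a window is not a site shown to be bound.

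A further 64 genes of the same pathways outside the list gave 62 in the files and 35 tested, of which 3 were higher (8.57%) and 9 were lower (25.7%). Over all genes tested these shares were 13.9% and 23.1%, so the share of lower genes is near that of all genes. Those of replication and repair gave none past the threshold in 8 tested, while with the replicate block Dna2 was lower (adjusted p = 0.0428) and C1qbp higher (adjusted p = 0.0491). Those of RNA processing gave 6 lower of 17. Trnt1, which adds the terminal CCA to transfer RNAs, had 20.9 ± 3.58 FPKM in Esrp1_KO and 51.5 ± 7.95 FPKM in WT (log2 fold change −1.26 ± 0.16, adjusted p = 0.000336). The ribosomal RNA methylase Mettl15 had 10.6 ± 0.39 FPKM in Esrp1_KO and 18.7 ± 2.77 FPKM in WT (−0.76, adjusted p = 0.00159), and the mitochondrial RNA nuclease Lactb2 had 4.74 ± 1.24 FPKM in Esrp1_KO and 9.04 ± 0.60 FPKM in WT (−0.83, adjusted p = 0.00287). Among 7 nucleotide supply genes 2 were higher and 1 was lower. The pyrimidine nucleotide carrier Slc25a36 had 4.11 ± 1.04 FPKM in Esrp1_KO and 1.16 ± 0.33 FPKM in WT, a 3.53-fold higher level (1.23, adjusted p = 0.000579). Rrm2, the S-phase subunit of ribonucleotide reductase and counterpart of Rrm2b, had 18.5 ± 3.41 FPKM in Esrp1_KO and 9.74 ± 0.64 FPKM in WT (0.85, adjusted p = 0.00128).

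Of 8 listed nuclear regulators of these genes 3 were tested, and all 3 passed, in different directions. Over all genes tested, 36.9% passed in either direction. Nrf1, a transcription factor of many mitochondrial genes, had 1.86 ± 0.10 FPKM in Esrp1_KO and 3.07 ± 0.21 FPKM in WT (log2 fold change −0.51 ± 0.11, adjusted p = 0.00517). The coactivator Ppargc1b had 1.11 ± 0.30 FPKM in Esrp1_KO and 2.23 ± 0.32 FPKM in WT (−0.62, adjusted p = 0.00801). Gabpb1, the partner subunit of the ETS factor GABPA, had 8.62 ± 0.25 FPKM in Esrp1_KO and 5.98 ± 0.31 FPKM in WT (0.46, adjusted p = 0.00671). Ppargc1a, a coactivator related to Ppargc1b, was below the filter, with 1.26, 0.402, 0.45 and 1.06 FPKM in Esrp1_KO, against 0.0345, 0.127, 0.162 and 0.021 FPKM in WT. The groups do not overlap, with Esrp1_KO above WT, and it passed in the fit without a filter (adjusted p = 0.035). Gabpa, Pprc1, Esrra and Yy1 were below the filter as well, with overlapping groups, and did not pass in that fit.

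The RNA on which the members act held a smaller share in Esrp1_KO. Transcripts of the mitochondrial genome made up 1.03%, 1.44%, 1.77% and 1.08% of the summed FPKM in Esrp1_KO, against 4.99%, 5.39%, 5.22% and 5.21% in WT. The groups do not overlap (exact two-sided permutation p = 0.0286, n = 4 each, the smallest possible). The 12 tested mRNAs stood at 15.2% to 41.8% of WT and all passed. The ribosomal RNAs stood at 60.6% to 60.7% of WT. Of these, mt-Rnr2 passed (adjusted p = 0.0274), while mt-Rnr1 overlapped between the groups and did not (adjusted p = 0.0975), except with the replicate block (adjusted p = 0.016). The libraries were primed on poly(A) tails, so tail length and transcript number cannot be told apart here, and genome copies were not measured.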

How the data were processed

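The authors deposited FPKM per gene, per the file headers. The submitters' processing notes name GRCm38 as the build, and the aligner, counter and annotation were not given in the sources used here. Ensembl identifiers were matched to GENCODE M21 symbols, which gave 24812 of 24860. Multiplied by M21 exon length, 90.0% to 90.6% of each library's values fell on whole multiples of a step within 0.02 of a read, which gave the read totals and the reads per gene. These reads are not independent molecules.

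The test was limma 3.58.1 (R 4.3.3) on log2(FPKM + 1) for the 8021 genes that averaged 1 FPKM or more. Genotype was the single term, the prior variance followed an intensity trend, and two-sided p-values were adjusted over these genes by Benjamini-Hochberg, with a threshold of 0.05. The log2 scale understates changes of low genes. The fit was tested on simulated data. Sums and shares were compared by exact permutation over the 70 arrangements of 8 libraries. Count models were left out because the deposited unit is not a count, except a voom fit on recovered reads as an alternative. In all, 22 alternatives were tried, 1 of them (neither library numbered 1) chosen after seeing the data.

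The members and the other lists were chosen with earlier results of these data known. Named were all members, the 8 other pathway genes past the threshold with the smallest p, Esrp1, and mitochondrial genome transcripts as a range and share. The markers named singly, Dna2, C1qbp, mt-Rnr1 and mt-Rnr2, and the genes of the last part, were named after their values were seen. So were Ppargc1a and the other regulators below the filter. Replicate numbers come from the labels, which give no shared litter or day. Deviations of same-numbered libraries from their group means correlated at 0.226 to 0.317 over genes in all 4 pairs, so the numbers were taken as pairs in the alternative with a replicate block. Unlike numbers reached 0.402 (Esrp1_KO replicate 1 with WT replicate 4). Stretches of 50 bases shared with other M21 transcripts were counted for the members, and a share above 20% is given for those tested. Promoter windows are from RefSeq (GRCm38.p6).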

Additional observations from a re-analysis of the deposited data

Results flagged for a closer look

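In 56 groups of 4 libraries, 5 held a library far from the other 3, where chance gives about 1 in 20 groups. In Esrp1_KO, all 3 cases fell on replicate 1, which stood at 9.68 FPKM for Elac2 against 5.09 to 5.32 FPKM in the others, at 26.1 FPKM for Supv3l1 against 15.1 to 16.9 FPKM, and at 4.24 FPKM for Ptcd1 against 1.60 to 1.81 FPKM. In WT, replicate 2 stood at 9.17 FPKM for Tfb2m against 6.14 to 6.22 FPKM, and replicate 1 stood at 13.3 FPKM for Grsf1 against 8.11 to 8.77 FPKM. Both of these WT libraries can be left out with Tfb2m still lower and Grsf1 still higher in Esrp1_KO at an adjusted p below 0.05 (limma).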

How the results depend on the processing

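Mterf1a, Mterf1b, Grsf1 and Trmt10c kept their calls in all alternatives run on them, and Tfam, Tfb2m, Tfb1m, Fastkd2 and Dguok in every omission of 1 library. The 22 alternatives ended the call of Rnaseh1 in 14, of Fastkd1 in 13 and, of 21 for Twnk, in 10. Members lower were 7 with replicates 1 and 4 alone, 4 with replicates 2 and 3 alone and 8 to 11 without 1 library. Fewer of all 8021 genes tested were lower in these fits as well, 1515 to 1816 without 1 library against 1850 with all 8 libraries. The share that was lower was larger among the members in each of them, though only narrowly with replicates 2 and 3 alone. Members lower were 7 of 37 with no filter on low values and 7 of 17 with a mean of at least 5 FPKM. At that mean Mterf1a, Tfam, Twnk and Fastkd2 were no longer tested, and no tested member changed its call. Members higher were 2 with the replicate block, which added Elac2, and 1 to 2 without 1 library, the second being Mterf3 without WT replicate 3. Their median log2 fold change was −0.16 with median-ratio scaling, −0.16 with quantile normalization, −0.31 with a common total of nuclear genes, −0.35 with replicates 1 and 4 alone, −0.18 with replicates 2 and 3 alone, −0.18 with neither library numbered 1 (chosen after seeing the data) and −0.27 to −0.19 without 1 library. Other pathway genes gave 5 higher with the replicate block, and 4 lower with replicates 1 and 4 alone and 2 lower with replicates 2 and 3 alone. Of the members, the block moved the calls of Elac2 and Fastkd1 and no other. Over all genes, 668 were higher and 996 lower of the 4290 tested with a mean of at least 5 FPKM. There were 676 higher with replicates 1 and 4 alone, and 584 higher and 905 lower with replicates 2 and 3 alone. In these pairs of replicates the Mterf1 sum differed by −16.8 and −18.1 FPKM and the mitochondrial share by −4.05 and −3.70 percentage points, where the exact p of 0.333 is the smallest possible. Signs that turned, none of them called, were Pnpt1 (−0.28 with replicates 2 and 3 alone, −0.10 with neither library numbered 1, −0.069 to 0.15 without 1 library), Supv3l1 (−0.013 with sample quality weights, −0.042 with neither library numbered 1, −0.050 to 0.20 without 1 library), Ptcd1 (−0.010 to 0.33 without 1 library), Ptcd2 (0.0065 with median-ratio scaling, 0.047 with quantile normalization, −0.16 to 4.6e-05 without 1 library) and Mtpap (−0.026 with quantile normalization, −0.034 with nuclear totals, −0.11 with replicates 2 and 3 alone, −0.025 with neither library numbered 1, −0.062 to 0.14 without 1 library). The cause was not tested. Of the members below the filter, Tefm, Mterf2 and Polg had at most 41 reads in any library, while Polrmt had 48 to 203.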

Other observations

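Genes lying between or beside the Mterf1 copies on chromosome 5 were read after the values of the copies were seen. Akap9, a scaffold of the centrosome and Golgi that lies between them, had 4.48 ± 0.69 FPKM in Esrp1_KO and 7.33 ± 0.09 FPKM in WT (SD, n = 4 each), 61.1% of WT, and fell by 0.61 on the log2 scale (adjusted p = 0.00392, limma). Cyp51, a sterol demethylase that also lies between them, was below the filter, with 0.408 to 0.577 FPKM in Esrp1_KO and 1.04 to 1.51 FPKM in WT. Its groups do not overlap, and it was lower in the limma fit without a filter on low values (adjusted p = 0.0109). On the other side of Mterf1a, Ankib1 did not pass (log2 fold change 0.17, adjusted p = 0.409). Krit1, on that side and below the filter, had 0.631 to 0.961 FPKM in Esrp1_KO and 0.371 to 0.442 FPKM in WT. Its groups do not overlap, with Esrp1_KO above WT, and it did not pass in the fit without a filter (adjusted p = 0.0762).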
